A study of Mus musculus with 2 samples.

Results

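Axon guidance ligands and receptors were described in mouse embryoid bodies after retinoic acid treatment. Members were all probes whose annotation gives exactly 1 gene symbol of the ephrins (Efna, Efnb), their Eph receptors (Epha, Ephb), the semaphorins, plexins, neuropilins, Slit and Robo proteins, netrins, Unc5 proteins or Dcc. These were 68 of 32440 probes on the array and stood for 63 of 13697 named genes. Unc50, which encodes a Golgi membrane protein, and Unc5cl, which encodes a death-domain protein that is not a netrin receptor, entered through their symbols alone and are described apart from the families.

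The samples were embryoid bodies, aggregates that embryonic stem (ES) cells form as they differentiate. They were derived from either Elongin A+/+ or Elongin A-/- ES cells. Both kinds were grown in DMEM/F12 with serum and N2 and received 2 µM retinoic acid, which directs ES cells towards neural fates, and RNA was measured at day 4, so the treatment is shared and no untreated sample is compared. Elongin A is the transcriptionally active subunit of Elongin, a complex that stimulates transcript elongation by RNA polymerase II. There was 1 array per genotype. The labels name neither the ES cell clone nor the number of bodies pooled, so genotype cannot be told apart from cell line, culture or array. With 1 array each, no difference had a replicate check and none was tested.

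Axon guidance proteins steer growing axons and migrating cells by attraction or repulsion. Ephrins are bound to the membrane and signal between touching cells through Eph receptor tyrosine kinases. Semaphorins act through plexins, with neuropilins as co-receptors for the secreted class 3 proteins, Slits repel through Robo receptors, and netrins attract through Dcc and repel through Unc5 receptors. Several of these proteins also pattern the neural tube and blood vessels.

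Values are array intensities after quantile normalisation, which gives both arrays the same distribution. The floor was the median of all probes, 1.03, and a gene was called measured if its probe exceeded the floor on either array. Where 1 array lay below the floor, it was set to the floor and the fold is written as "at least". Log2 differences are given as Elongin A-/- minus Elongin A+/+. Deposited medians were 1.02 on the Elongin A+/+ array and 1.03 on the Elongin A-/- array. Probes of the same gene that were above the floor on both arrays disagreed in their log2 difference with an SD of 0.43 (224 genes). No member had several such probes. This SD is the only error that the arrays hold, and it does not measure variation between cultures or arrays. The probe of Eloa, the Elongin A gene, gave 3.88 on the Elongin A+/+ array and 3.58 on the Elongin A-/- array. Where it lies relative to the deleted part is not stated in the labels, so it does not check the labels.

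Most guidance genes were dim or differed by less than 2-fold between the genotypes, and those that differed by more went both ways. Of the 63 genes, 42 (66.7%) were measured (29 above the floor on both arrays, 9 only on the Elongin A+/+ array and 4 only on the Elongin A-/- array), and 21 lay below the floor on both. Over all 13697 named genes 69.9% were measured, 7529 on both arrays, 1008 only on the Elongin A+/+ array and 1031 only on the Elongin A-/- array. At least 2-fold higher on the Elongin A-/- array were 4 members, Efna1, Epha6, Ephb4 and Unc5a, and at least 2-fold lower were 3, Efnb1, Ntng2 and Sema6c. These 7 make up 16.7% of the measured members, where 12.8% of all 9568 measured genes were at least 2-fold apart (6.77% higher and 5.99% lower). Where both arrays were above the floor, 5 of 29 members (17.2%) were that far apart, against 9.91% of 7529 genes. The rate depends on brightness. It was 20.9% over measured genes with a mean level under 4 times the floor, the range that holds 30 of the 42 measured members, of which 5 were at least 2-fold apart. It was 6.52% over brighter genes, which include 12 members, 2 of them (Efnb1 and Ephb4) at least 2-fold apart. The counts rest on the floor: with no floor they were 6 higher (Dcc and Sema4g in addition) and 8 lower (Efnb3, Ephb6, Nrp2, Sema4b and Slit2 in addition), where 21.6% of measured genes were that far apart, and with a floor set at the 75th percentile 0 were higher and 1 lower, Efnb1.

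Differences of moderate size were also counted, as a description with no test. At least 1.5-fold apart were 21 of the 42 measured members, against 30.6% of all measured genes. In the brighter range this share was 6 of 12 members, against 21.7% of genes, and in the dimmer range 15 of 30, against 42.2%. They had no common direction: 19 measured members were higher and 23 lower by any margin. The median log2 difference was -0.07 over the 42 measured members and -0.02 over all measured genes. Over genes above the floor on both arrays, the medians were 0.19 for the 29 members and -0.02 for 7529 genes. In bulk RNA, fewer cells that express a gene and less of its RNA per cell cannot be told apart.

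**Figure D1:**
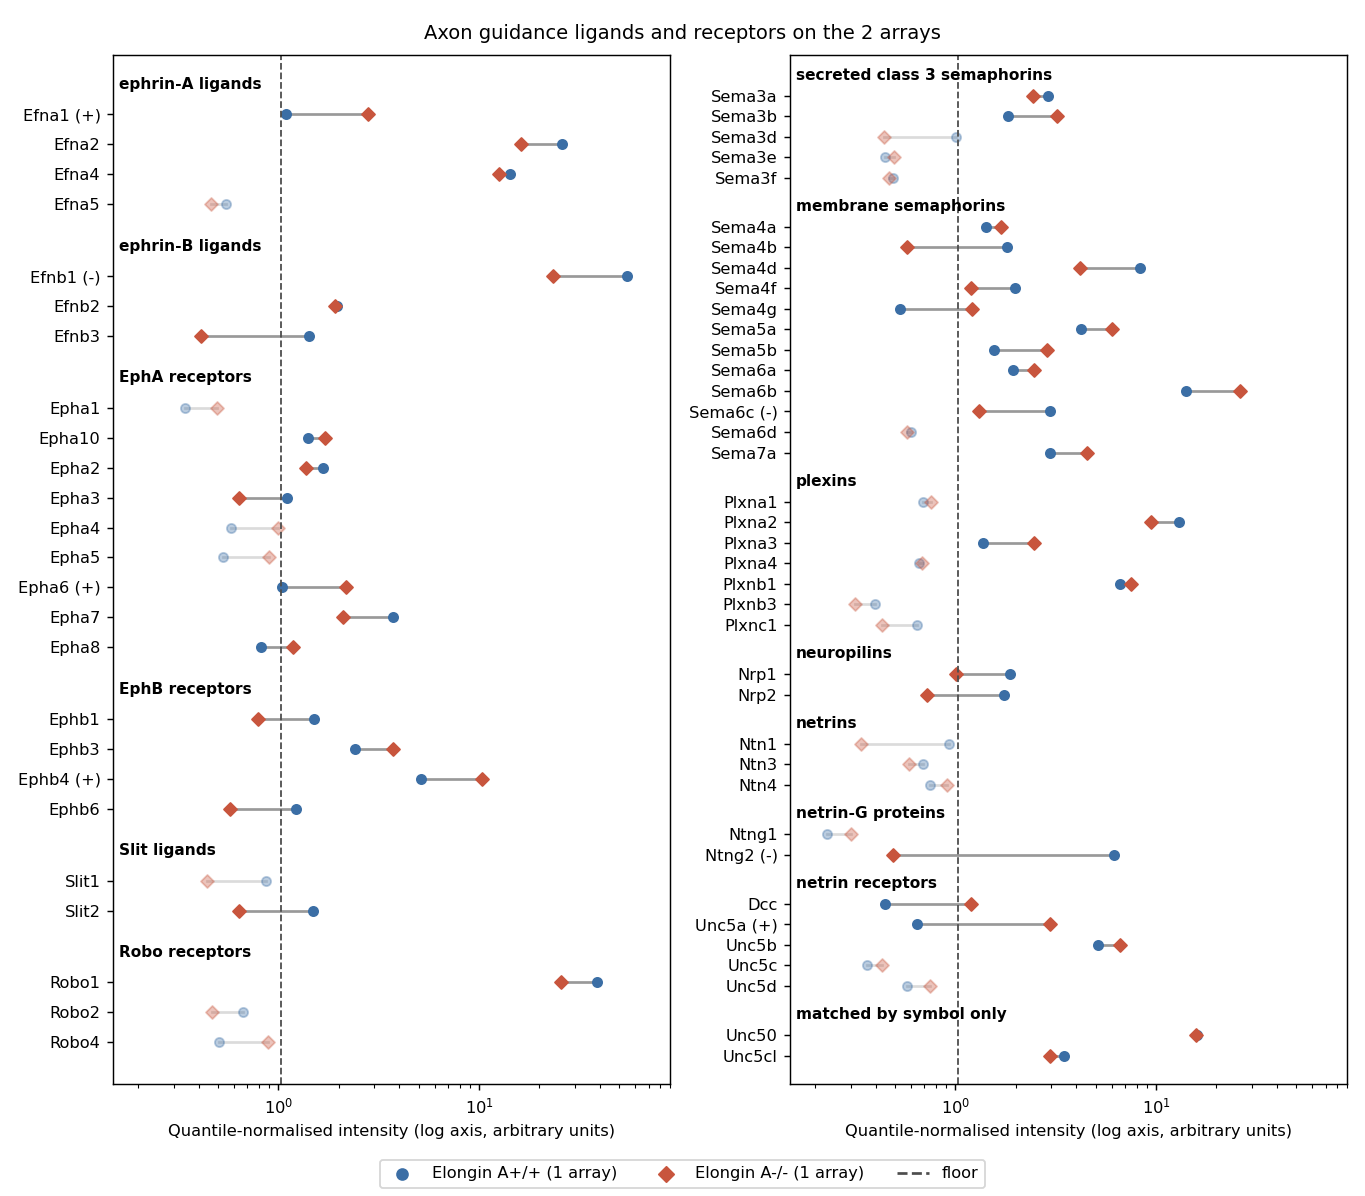
Quantile-normalised intensity (log axis) of each of the 63 genes on the Elongin A+/+ array (circles) and the Elongin A-/- array (diamonds), by family, with 1 array each and no error bars. The dashed line is the floor at 1.03, faint pairs are the 21 genes below it on both arrays, and (+) and (-) mark the 4 genes at least 2-fold higher and the 3 at least 2-fold lower. Levels of different probes cannot be compared.

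**Figure D2:**
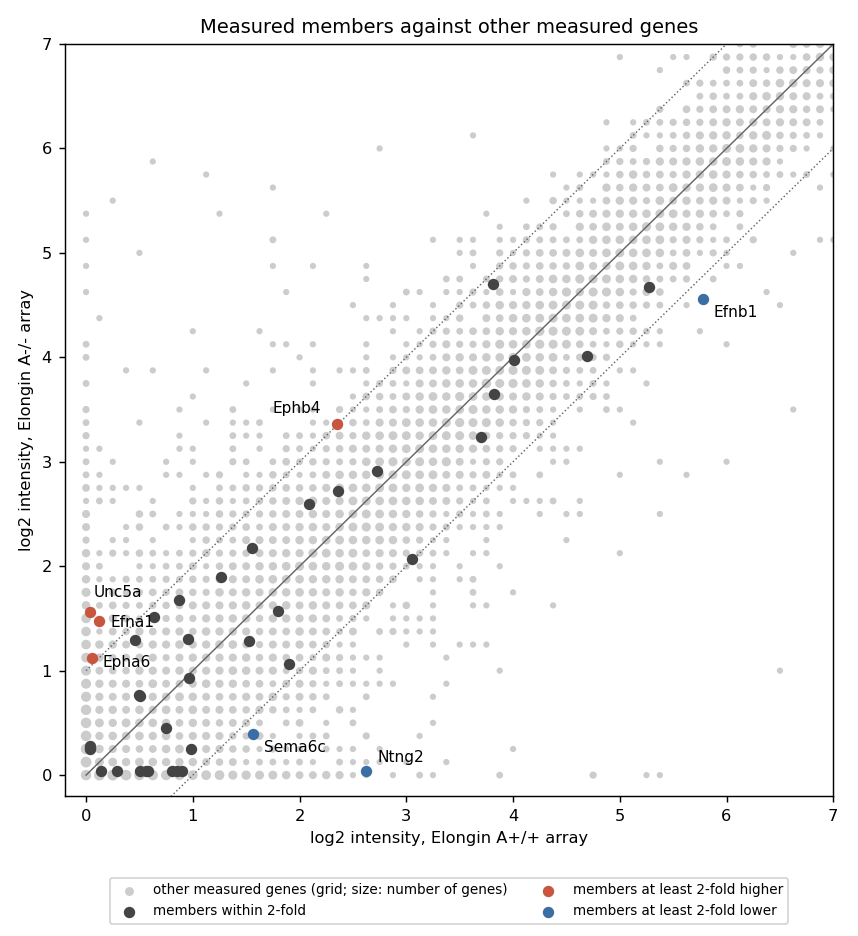
Log2 intensities of the 42 measured members (dark and coloured points) and of the other measured genes (grey grid, point size by number of genes) on the Elongin A+/+ (horizontal) and Elongin A-/- (vertical) arrays, with values below the floor set to it and genes above 7 not drawn. Dotted lines mark 2-fold, and the 7 named genes are those at or beyond them, of which Ephb4 lies on the line.

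**Figure D3:**
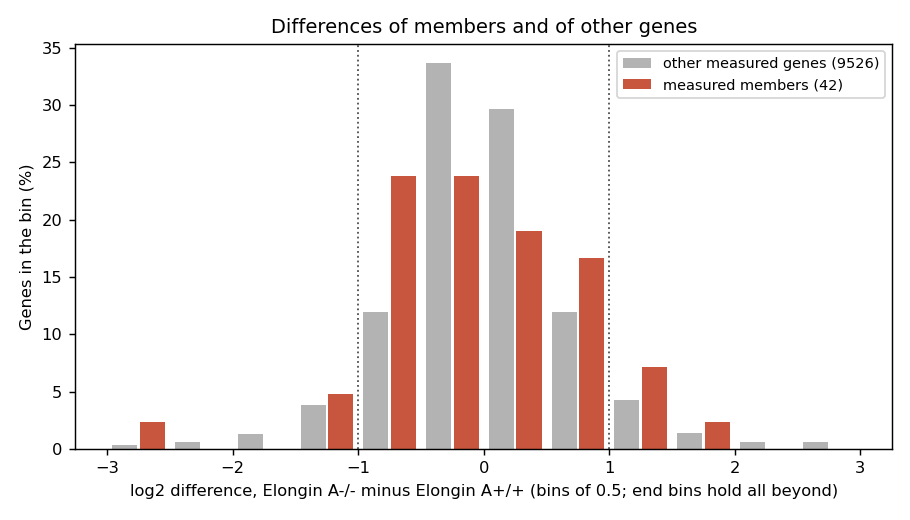
Share of genes (%) in bins of 0.5 of the log2 difference, Elongin A-/- minus Elongin A+/+, for the 42 measured members (coloured bars) and the other 9526 measured genes (grey bars), with dotted lines at 2-fold. The members have a smaller share near 0 and a larger share in the bins from 0.5 to 1 on either side.

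Promoters of members at least 2-fold apart are shown to describe their base composition. A link between composition and direction was not tested. RefSeq's table (GRCm38.p6) held start regions of 53 of the 63 genes. The 5 members at least 2-fold apart with 1 start region each are printed as the 250 bases before the start site, 5′ to 3′ on the gene's strand. Capitals mark the GC box, GGGCGG on either strand, a motif bound by Sp1-type factors. The first 3 belong to the genes that were higher and the others to those that were lower.
Unc5a, chr13:54949161-54949410, plus strand: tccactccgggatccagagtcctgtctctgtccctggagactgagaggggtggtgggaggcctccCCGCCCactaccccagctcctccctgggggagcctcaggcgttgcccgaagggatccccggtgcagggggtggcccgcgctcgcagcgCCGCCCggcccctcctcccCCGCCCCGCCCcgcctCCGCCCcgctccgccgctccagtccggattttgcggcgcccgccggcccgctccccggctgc
Ephb4, chr5:137349859-137350108, plus strand: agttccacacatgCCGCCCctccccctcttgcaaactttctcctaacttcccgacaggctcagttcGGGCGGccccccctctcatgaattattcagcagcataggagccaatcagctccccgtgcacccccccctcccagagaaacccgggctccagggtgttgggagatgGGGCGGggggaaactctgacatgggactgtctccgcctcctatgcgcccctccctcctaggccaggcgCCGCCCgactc
Epha6, chr16:60605532-60605781, minus strand: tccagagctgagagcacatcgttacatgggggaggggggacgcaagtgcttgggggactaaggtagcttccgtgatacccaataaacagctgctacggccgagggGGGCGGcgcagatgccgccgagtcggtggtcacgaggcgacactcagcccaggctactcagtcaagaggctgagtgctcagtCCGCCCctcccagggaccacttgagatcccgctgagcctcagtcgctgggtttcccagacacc
Efnb1, chrX:99135811-99136060, plus strand: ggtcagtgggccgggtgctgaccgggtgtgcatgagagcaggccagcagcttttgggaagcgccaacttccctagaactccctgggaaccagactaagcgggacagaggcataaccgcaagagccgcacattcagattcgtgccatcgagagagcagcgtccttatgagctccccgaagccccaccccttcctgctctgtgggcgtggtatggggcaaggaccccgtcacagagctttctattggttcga
Ntng2, chr2:29248100-29248349, minus strand: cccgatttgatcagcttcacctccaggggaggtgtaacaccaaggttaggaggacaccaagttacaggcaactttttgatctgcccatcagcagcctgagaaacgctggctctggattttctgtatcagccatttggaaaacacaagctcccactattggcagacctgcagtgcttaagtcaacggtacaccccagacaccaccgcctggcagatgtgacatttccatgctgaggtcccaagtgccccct

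These windows had 5 GC boxes in Unc5a, 4 in Ephb4, 2 in Epha6 and 0 in Efnb1 and Ntng2. The share of G or C was 76.8% in Unc5a, 64.0% in Ephb4, 62.8% in Epha6, 60.0% in Efnb1 and 52.4% in Ntng2. Of the others at least 2-fold apart, Efna1 (higher) had a GC box in both of its 2 windows and Sema6c (lower) in 1 of its 2. Over the 66 windows of the 53 members, 68.2% held a GC box and the median GC content was 64.0%. A GC box was in 66.7% of the 9 windows of the 7 members at least 2-fold apart. It was in 72.9% of 48 windows of measured members and 53.9% of 9907 windows of measured genes. Over 13800 windows of genes named on the array, 47.2% held a GC box and the median GC content was 57.2%, and over all 32851 windows in the table the values were 32.7% and 52.4%. The half-site AGGTCA of retinoic acid receptors, searched on both strands, was found in 12.1% of member windows, 12.4% of windows of genes named on the array and 14.02% of all windows, and in none of the 9 windows of the 7 members at least 2-fold apart. Its direct repeats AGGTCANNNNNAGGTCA and AGGTCANNAGGTCA, which contain the half-site, were in no member window and in 3 of all windows each. The TATA box TATAAA (both strands) was in 3.03% of member windows and 10.53% of windows of genes named on the array, the E-box CANNTG in 45.5% and 61.7%, the homeodomain motif TAATTA in 3.03% and 3.82%, and the GATA motif AGATAA (both strands) in 4.55% and 8.22%. A match describes letters in a window and shows no binding.

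Ephrin ligands differed member by member. Efnb1, an X-linked transmembrane ligand that sets tissue boundaries and acts in neural crest, had 54.8 on the Elongin A+/+ array and 23.5 on the Elongin A-/- array (probe 916361), 2.33-fold lower (log2 -1.22). It was far above the floor on both arrays, and 3.76% of measured genes were lower by as much. Efna1, a membrane-anchored ligand of Epha2, went the other way with 1.09 and 2.78 (probe 792870), 2.55-fold higher (log2 1.35), but its value on the Elongin A+/+ array lay just above the floor.

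The other ephrins lay within 2-fold. Efna2, a ligand in topographic mapping of axons, had 25.8 and 16.2, 1.60-fold lower (log2 -0.67). Efna4 had 14.2 and 12.5 (log2 -0.18), less than the disagreement between probes. Efna1 and Efna4 lie on chromosome 3 with 1 protein-coding gene between them in RefSeq's gene order. Efnb2, a ligand known from arteries, had 1.96 and 1.91 (log2 -0.04, and 0.08 with the values as deposited). Efnb3, a ligand of the spinal cord midline, had 1.42 and 0.41, at least 1.39-fold lower. Both lie on chromosomes whose genes were higher as a whole, chromosome 8 for Efnb2 (median log2 difference 0.47 over 423 genes above the floor on both arrays) and chromosome 11 for Efnb3 (0.45 over 645). Relative to those medians Efnb2 was at -0.51 and Efnb3, set to the floor on the Elongin A-/- array, at -0.92 or lower. Efna5 was below the floor on both arrays.

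Among Eph receptors, 6 of 9 EphA genes and 4 of 4 EphB genes were measured, and 1 of each was at least 2-fold higher. Ephb4, the receptor of Efnb2 and a marker of veins, had 5.12 on the Elongin A+/+ array and 10.3 on the Elongin A-/- array (probe 517770). This is 2.01-fold higher (log2 1.01), just past the threshold, and 6.66% of measured genes were higher by as much. Epha6 had 1.04 and 2.18 (probe 403350), 2.10-fold higher (log2 1.07), from a value at the floor. Epha6 and Epha3 lie on chromosome 16 with 4 protein-coding genes between them, and Epha3 had 1.10 and 0.63, at least 1.07-fold lower.

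Ephb3, a receptor of B ephrins in commissural axons, had 2.41 and 3.71, 1.54-fold higher (log2 0.62). Epha7, a receptor expressed in the neural tube, had 3.73 and 2.09, 1.79-fold lower (log2 -0.84). Both stayed within 2-fold while exceeding the SD between probes. Ephb1, another B-type receptor, had 1.496 and 0.79, at least 1.46-fold lower. Ephb6, whose kinase domain is inactive, had 1.22 and 0.57, at least 1.19-fold lower. Because its second value was set to the floor, 0.06 relative to the median of chromosome 6 is only an upper limit. With no floor the log2 difference of Ephb6 was -1.09. The brighter probe of Epha2, a receptor of Efna1, had 1.68 and 1.37 (log2 -0.29), and its other probe was below the floor on both arrays. Epha10 had 1.41 and 1.70 (log2 0.27), and Epha8 had 0.82 and 1.19, at least 1.16-fold higher. Epha1, Epha4 and Epha5 were below the floor on both arrays.

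Semaphorins went both ways, and the 1 past 2-fold was lower. Of 17 semaphorin genes 13 were measured, 8 higher and 5 lower by any margin, with a median log2 difference of 0.25. Sema6c, a transmembrane semaphorin, had 2.96 and 1.31 (probe 484872), 2.26-fold lower (log2 -1.17). Its relative Sema6b, which signals through A-type plexins, had 14.1 and 26.1, 1.85-fold higher (log2 0.89), and Sema6a had 1.94 and 2.46 (log2 0.35). The class 6 proteins thus went both ways, and Sema6d was below the floor on both arrays.

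Sema5b, a semaphorin with thrombospondin repeats, had 1.55 and 2.85, 1.84-fold higher (log2 0.88). Its relative Sema5a had 4.25 and 6.05, 1.42-fold higher (log2 0.51). Both class 5 genes were higher, each by less than 2-fold. Sema7a, which is membrane-anchored and acts through Plxnc1 and integrins, had 2.94 and 4.50 on its brighter probe, 1.53-fold higher (log2 0.61). Its other probe had 0.91 and 0.46, below the floor on both arrays, and the mean over both probes had the opposite sign (log2 -0.19).

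Of 5 measured class 4 semaphorins, 3 were lower and 2 higher. Sema4d, the ligand of Plxnb1, had 8.29 and 4.19 on its brighter probe (693200), 1.98-fold lower (log2 -0.98), just short of the threshold. Its dimmer probe (833252) had 0.64 and 1.18, the other direction, so the probes disagree, and the mean over both gave -0.05. Sema4f had 1.98 and 1.19, 1.66-fold lower, and lies on chromosome 6, where the median of 380 genes was -0.31. Relative to that median it was at -0.43. Sema4b had 1.80 and 0.57, at least 1.75-fold lower. Sema4a had 1.42 and 1.69, 1.19-fold higher, and Sema4g had 0.53 and 1.22, at least 1.18-fold higher.

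Of 5 secreted class 3 semaphorins, 2 were measured. Sema3b had 1.83 and 3.20, 1.75-fold higher (log2 0.80). Sema3a, which repels axons through Nrp1 and A-type plexins, had 2.88 and 2.44 (log2 -0.24), less than the disagreement between probes. Sema3d, Sema3e and Sema3f were below the floor on both arrays. Sema3f lies near Sema3b on chromosome 9, with 3 protein-coding genes between them.

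Both neuropilins were lower on the Elongin A-/- array, and no plexin reached 2-fold. Nrp1, the co-receptor of Sema3a and also of VEGF, had 1.87 and 1.01, at least 1.82-fold lower (log2 -0.86). It lies on chromosome 8 and was at -1.33 or lower relative to that chromosome's median. Nrp2 is named by 3 probes. Of these, 1 had 1.75 and 0.72, another 1.75 and 0.45, and the third was below the floor on both arrays with 0.37 and 0.57. On both measured probes it was at least 1.71-fold and 1.70-fold lower, the only member with 2 measured probes of the same direction, and with the mean over its 3 probes the difference was -0.02.

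Among 7 plexins 3 were measured. Plxna3, an X-linked semaphorin receptor, had 1.37 and 2.46, 1.79-fold higher (log2 0.84). Plxna2, a receptor of class 3 and class 6 semaphorins, had 13.0 and 9.42 (log2 -0.47), and Plxnb1, the Sema4d receptor, had 6.63 and 7.54 (log2 0.19). Plxna1, Plxna4, Plxnb3 and Plxnc1 were below the floor on both arrays. Sema7a was thus measured on its brighter probe, and its receptor Plxnc1 was not measured. A probe below the floor does not show that a transcript was absent.

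The widest difference of any member was in the netrin group. Ntng2, a netrin-G protein that is anchored to axon membranes and binds neither Dcc nor Unc5 receptors, had 6.17 on the Elongin A+/+ array and 0.49 on the Elongin A-/- array (probe 834215). It was at least 6.01-fold lower (log2 -2.59), and 0.261% of measured genes were lower by as much. Unc5a, a repulsive netrin receptor, had 0.64 and 2.96 (probe 332675), at least 2.88-fold higher (log2 1.53), and 2.42% of measured genes were higher by as much. Each of these rests on 1 probe that was below the floor on 1 array.

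Unc5b, a netrin receptor also of blood vessels, had 5.15 and 6.59 (log2 0.36), less than the disagreement between probes. Dcc, the attractive netrin receptor, had 0.45 and 1.20, at least 1.17-fold higher. Of the 3 measured netrin receptors, only Unc5a differed by 2-fold or more. Their ligands Ntn1, Ntn3 and Ntn4, the receptors Unc5c and Unc5d, and Ntng1 were below the floor on both arrays. Unc50 (16.1 and 15.8) and Unc5cl (3.47 and 2.97), which matched by symbol only, were within 2-fold.

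Slit and Robo genes were measured by 1 gene each. Robo1, the Slit receptor of commissural axons, had 38.8 and 25.5 (probe 761860), 1.52-fold lower (log2 -0.60). Slit2, a repellent of the floor plate, had 1.48 and 0.64, at least 1.44-fold lower. Both were lower on the Elongin A-/- array, neither by 2-fold. Robo2, which lies next to Robo1 on chromosome 16, and Slit1 were below the floor on both arrays. So was Robo4, the receptor of endothelium, with 0.50 and 0.89.

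**Figure D4:**
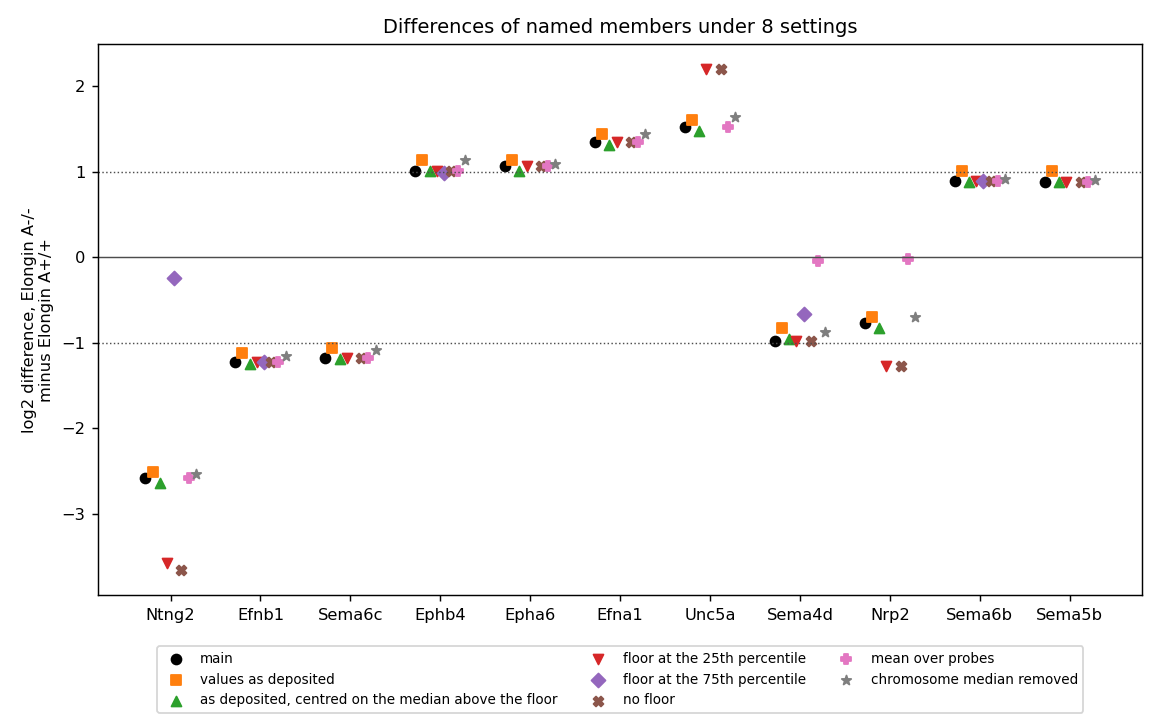
Log2 difference (Elongin A-/- minus Elongin A+/+) of the 7 members at least 2-fold apart and of Sema4d, Nrp2, Sema6b and Sema5b under 8 settings of scaling, floor, probes and chromosome (symbols), with dotted lines at 2-fold. Ntng2 ranged from -3.67 to -0.24 and Efnb1 from -1.25 to -1.12. Efnb1 has 1 probe, above every floor, so only the scaling and chromosome settings could move it. Sema4d and Nrp2 were near 0 with the mean over probes.

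Ligands and receptors were set side by side by role. Of 31 ligand genes 21 were measured, 1 at least 2-fold higher and 3 lower, and of 30 receptor genes 19 were measured, 3 at least 2-fold higher and none lower. The background was 6.77% higher and 5.99% lower by 2-fold or more, which is about 1 gene per direction among as many genes, so no pattern by role is read from these counts. The median log2 difference was -0.18 for ligands and 0.19 for receptors, against -0.02 over all measured genes, and no difference between them was tested. Over genes above the floor on both arrays the medians were 0.11 for 16 ligands, 0.27 for 11 receptors and -0.02 for all genes. The sign for ligands thus turned. For Ephb4 and its ligand Efnb2, the receptor was higher (log2 1.01) and the ligand level (log2 -0.04). For Sema4d and its receptor Plxnb1, the ligand was lower on its brighter probe (log2 -0.98) and the receptor level (log2 0.19). For Efna1 and Epha2, the ligand was higher (log2 1.35) and the receptor lower by less than the SD between probes (log2 -0.29).

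Cofactors and effectors of guidance receptors were more often lower than higher on the Elongin A-/- array. This list was chosen with earlier results of these data known, so its counts are a description with no test. Of 78 listed genes 57 were named on the array and 45 measured, 30 lower and 15 higher by any margin, 6 at least 2-fold lower and 2 higher, with a median of -0.23. These 8 are 17.8% of the measured genes of the list, against 12.8% of all measured genes, of which 4937 were lower and 4627 higher by any margin. Above the floor on both arrays the shares were 10.8% and 9.91%. Of the 37 such genes of the list, 4 were at least 2-fold lower and 0 higher. By any margin 25 were lower and 12 higher, against 3929 and 3596 over all genes. Lower were Chn2, a chimaerin that switches off Rac (4.98 and 1.14), Adam10, a protease that cleaves ephrins (3.40 and 0.97), and Cntn2, an axonal adhesion molecule (3.03 and 0.71). Draxin, a secreted repellent that binds Dcc, was lower too (12.7 and 5.53), as was the Rac exchange factor Farp2 (2.60 and 1.21). Higher were Cdon, a surface protein of the immunoglobulin family (0.58 and 5.38), and Arhgef11, an exchange factor bound by B-type plexins (0.87 and 2.31). Both were below the floor on the Elongin A+/+ array, as Adam10 and Cntn2 were on the Elongin A-/- array.

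Markers of cell types that the bodies can hold differed beside the guidance genes. The lists were chosen with earlier results of these data known, so their counts are a description with no test. For every list, the share over all measured genes was 6.77% at least 2-fold higher and 5.99% lower. Of 35 measured neural markers 12 were lower by 2-fold or more and 0 higher (42 listed, 38 named), with a summed intensity over named genes of 835 on the Elongin A+/+ array and 554 on the Elongin A-/- array. Tubb3, the neuronal tubulin, had 179 and 168, and both arrays were below the floor for Map2. Neurod4 (20.4 and 3.14), Olig3 (40.8 and 5.72), Isl1 (10.0 and 2.25), Lhx5 (12.7 and 2.97) and Nhlh2 (90.2 and 22.2) are factors of neural progenitors and neurons and were among the lower ones. By any margin 25 neural markers were lower and 10 higher, the latter including Hes5 (75.6 and 125), Pax7 (4.15 and 6.63) and Pax6 (9.33 and 12.9), factors of neural progenitors that were named after their values were seen. Of 23 measured endothelial and blood markers 15 were higher by 2-fold or more and 0 lower (32 listed, 29 named), with summed intensities of 42.8 and 271. Only 6 of the 15 were above the floor on both arrays, and 11 of the 23 were above it on the Elongin A-/- array alone. By any margin 20 were higher and 3 lower. The lower ones were Spi1 (1.76 and 0.35), Klf1 (1.52 and 0.92) and Lyl1 (1.17 and 0.36), each above the floor only on the Elongin A+/+ array. Cldn5 (1.56 and 60.2), Kdr (2.23 and 54.4) and Pecam1 (0.67 and 4.14) were among the 15, while neither array was above the floor for Ptprc, Cdh5, Tie1, Erg, Flt4 or Gata1.

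The other marker lists differed as well. Of 16 measured mesoderm and mesenchyme markers 7 were at least 2-fold higher and 1 lower (26 listed, 23 named), with summed intensities of 160 and 304. Col3a1, a collagen of mesenchyme, had 41.8 and 152 and makes up most of the difference between the sums. The lower one, Tagln, a smooth muscle protein, had 41.4 and 8.30, the widest difference of the list. Of 6 measured neural crest markers 4 were at least 2-fold lower and 1 higher (13 listed, 9 named), with sums of 62.4 and 25.6. Msx1, a crest and dorsal neural tube factor, had 23.9 and 5.76. The higher one, Sox9, had 2.03 and 6.01, so the list did not go 1 way. Of some guidance genes known from blood vessels, Ephb4 was higher, and Efnb2 and Unc5b differed by less than the SD between probes. Nrp1 and Nrp2 were lower but below the floor on the Elongin A-/- array, and Nrp2 was at -0.02 with the mean over its probes. Robo4 was below the floor on both arrays. These genes are not 1 of the lists, and no direction is read from them. The part of any of these cell types in the differences of the guidance genes was not tested.

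**Figure D5:**
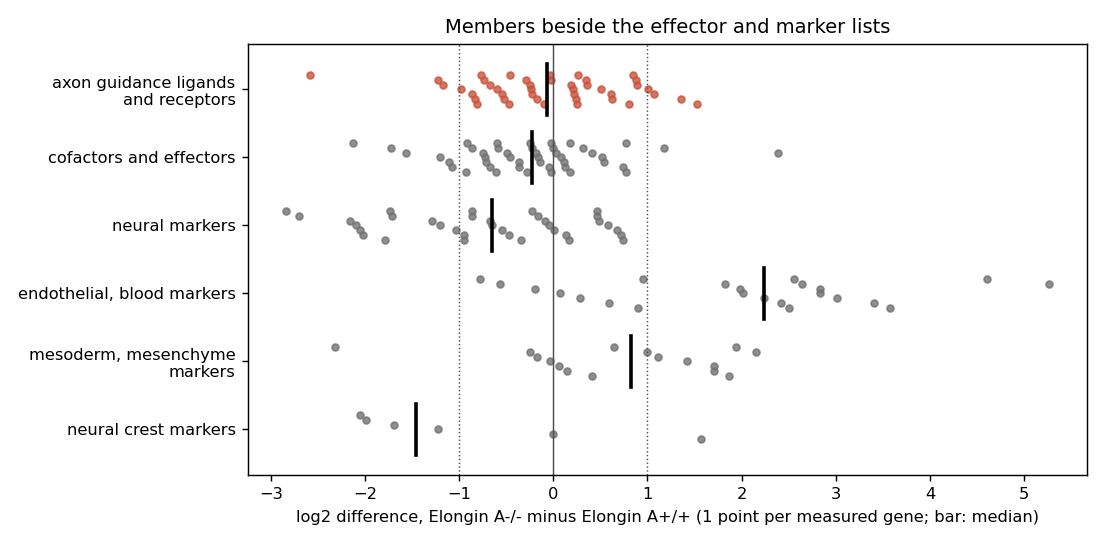
Log2 difference (Elongin A-/- minus Elongin A+/+) of each measured gene among the axon guidance ligands and receptors (42 genes), their cofactors and effectors (45) and the neural (35), endothelial and blood (23), mesoderm and mesenchyme (16) and neural crest (6) markers, with the median as a bar and dotted lines at 2-fold. The guidance genes lie on both sides of 0 with a median of -0.07, while the neural markers have a median of -0.65 and the endothelial and blood markers 2.24.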

How the data were processed

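The authors deposited array intensities on a linear scale for 32440 probes of 2 arrays, 1 per genotype. Per the labels, digoxigenin-labelled RNA was prepared with a chemiluminescent kit. Background correction and scaling by the authors are not stated in the labels. No value is negative, and both medians are near 1. The members, lists and settings were chosen with earlier results of these data known.

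Probes were named from the platform annotation (14253 with 1 symbol, 243 with several, 17944 with none). Of 13697 named genes, 13690 have a chromosome in RefSeq's GRCm38.p6 table, used for chromosome and gene order only. Arrays were quantile normalised, which hides any shift common to most genes. The floor was the median of all probes. A gene was read from its brightest probe, by mean log2 value. Genes were counted at 2-fold, with no p-value. The number of arrays and dim probes limit the precision. Values of both arrays are printed for every measured member, Robo4 and Eloa. Of each list they are printed for genes among the 8 widest. Tubb3, Pecam1, Spi1, Klf1, Lyl1, Hes5, Pax7 and Pax6 were added after their values were seen. A further gene of the effector list is not reported here. The calculation was tested on simulated data. Python 3.11.15, numpy 2.4.6 and pandas 2.3.3 were used.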

Additional observations from a re-analysis of the deposited data

How the results depend on the processing

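The alternatives were the values as deposited, those centred on the median above the floor, floors at the 25th and 75th percentile, no floor, the mean over probes, and each chromosome's median removed. Members at least 2-fold higher numbered 4 at the main setting and 0 once the floor was the 75th percentile, which left 13 measured members. Members at least 2-fold lower numbered 3, but 8 once the floor was the 25th percentile, 1 at the 75th and 8 with no floor. The fewer members measured at the higher floor, and the wider differences that a lower floor allows, come from how those settings are made. Over all genes, the share at least 2-fold apart was 21.6% with no floor and 4.80% at the higher floor. With the values as deposited, 6 members were at least 2-fold higher (Sema5b and Sema6b were added) and 3 lower, and over all genes 800 were higher and 449 lower against 648 and 573. The members' median changed sign there (0.01) and was -0.12 with centring. Of the 7 members at least 2-fold apart, 5 were so in every setting that measured them. Only Efnb1 was so in all 8 settings. Efna1, Epha6, Sema6c and Unc5a were too dim to be measured with the floor at the 75th percentile, so that setting gave no value for them. Ntng2 (-0.24) and Ephb4 (0.98) were measured there and fell within 2-fold. None of the 7 changed sign. Over all 42 measured members the sign turned in 4, Efnb2, Ephb6, Sema7a and Unc50. For Ephb6 the turned value is an upper limit set by the floor. No paired analysis was possible because there is 1 array per genotype. Dim probes limit the rest, since 30 of the 42 measured members had a mean level under 4 times the floor.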
